A study of Homo sapiens with 6 samples.

Results

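The mRNA of 172 solute carrier genes was compared in PC3 cells that had been sorted by their NRP2 level. The genes were chosen by symbol and by level: they are the protein-coding rows of the deposited table whose symbol begins with SLC or SLCO followed by a digit and whose mean TPM (a length-scaled share of the library) over the 6 libraries is at least 2. They are 172 of 280 such symbols and of 27958 genes in all. PC3 is an established, androgen-independent human prostate cancer line from a bone metastasis, and NRP2 encodes neuropilin-2, a membrane co-receptor of semaphorins and vascular endothelial growth factors. All cells were stained with an antibody to NRP2 and separated by flow cytometry, then grown for up to 2 weeks, with RNA taken at different passages. NRP2-high had 3 libraries, named S38, S39 and S40, and NRP2-low had 3, named S35, S36 and S37, all of the same line with no other treatment given in the labels. Unless stated, values follow in that order. No label tells whether replicate libraries were sorted or cultured separately, so p-values reflect the spread among these libraries alone, and that spread can be technical. The passage of each library is not stated, so passage and group cannot be told apart.

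Solute carriers move nutrients, ions, metals, vitamins and drugs across the plasma membrane and the membranes of organelles, mostly by facilitated diffusion or by coupling to a sodium or proton gradient. Exchangers of the inner mitochondrial membrane form the family named SLC25, and organic anion transporting polypeptides the family named SLCO. SLCO2B1 imports conjugated steroids such as dehydroepiandrosterone sulfate, together with statins and other drugs, which is why it is followed in prostate cancer. Some symbols name no carrier: SLC9A3R1 encodes a scaffold protein and SLC4A1AP an adaptor. The genes were placed in 13 classes by substrate, with 22 genes in a class without a settled substrate or without a carrier.

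The libraries held 17551302 to 30726744 reads, recovered from TPM and gene length. The share of mitochondrially encoded genes was 31.0% of TPM in S37 and 11.1% to 18.7% in the other libraries. TPM is a share, so all other genes together held a smaller part of the total in S37. NRP2 was at 48.1, 42.5 and 16.6 TPM in NRP2-high and 7.55, 5.10 and 2.71 TPM in NRP2-low libraries. The epithelial keratins KRT8 (62.9 to 174 TPM) and KRT18 (342 to 585 TPM) were high in every library, whereas EPCAM was listed at 0 in all but S38. The leukocyte gene PTPRC and the endothelial genes PECAM1 and CDH5 were at most 0.09 TPM, and the fibroblast genes COL1A1 and PDGFRB at most 0.48 and 0.15 TPM. In bulk RNA, fewer cells with a transcript and less of it per cell cannot be told apart.

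Promoter windows of SLCO2B1 are shown because this gene had the widest difference between the groups. Those of 5 amino acid carriers are shown because they hold one motif. Each window runs from 250 bases before to 50 bases after a start site, 300 bases in all, read from RefSeq on GRCh38.p14 and printed 5′ to 3′ on the strand of the gene. In the first 2 lines (SLCO2B1, chr11:75150857-75151156 and chr11:75159582-75159881, plus strand) capitals mark CCAAT. Their start sites, at 75151107 and 75159832, lie inside the gene as measured, which begins at 75100563. Which start these cells use is not known from these data. The other lines are SLC3A2 (chr11:62881449-62881748, plus strand), SLC1A5 (chr19:46784765-46785064, minus strand), SLC7A1 (chr13:29595639-29595938, minus strand), SLC1A4 (chr2:64989149-64989448, plus strand) and SLC38A1 (chr12:46266467-46266766, minus strand). In these, capitals mark TGATGNAA, the core of the composite element bound by ATF4, the factor of the amino acid response, or its reverse complement.
SLCO2B1 first window: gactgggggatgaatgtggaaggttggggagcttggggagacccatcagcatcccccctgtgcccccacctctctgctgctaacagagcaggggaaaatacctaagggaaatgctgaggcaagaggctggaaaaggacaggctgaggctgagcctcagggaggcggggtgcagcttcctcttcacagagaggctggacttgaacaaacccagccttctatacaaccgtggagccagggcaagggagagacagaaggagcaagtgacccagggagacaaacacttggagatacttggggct
SLCO2B1 second window: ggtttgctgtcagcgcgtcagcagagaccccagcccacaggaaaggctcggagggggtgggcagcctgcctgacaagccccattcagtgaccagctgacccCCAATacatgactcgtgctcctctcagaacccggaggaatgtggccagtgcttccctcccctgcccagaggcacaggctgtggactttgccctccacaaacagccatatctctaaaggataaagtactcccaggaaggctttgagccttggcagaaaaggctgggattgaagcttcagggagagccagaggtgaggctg
SLC3A2: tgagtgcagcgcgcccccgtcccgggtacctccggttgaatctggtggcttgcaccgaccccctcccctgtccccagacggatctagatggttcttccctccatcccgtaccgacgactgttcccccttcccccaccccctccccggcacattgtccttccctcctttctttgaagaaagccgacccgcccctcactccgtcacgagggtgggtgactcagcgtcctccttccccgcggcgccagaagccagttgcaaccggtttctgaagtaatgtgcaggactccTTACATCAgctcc
SLC1A5: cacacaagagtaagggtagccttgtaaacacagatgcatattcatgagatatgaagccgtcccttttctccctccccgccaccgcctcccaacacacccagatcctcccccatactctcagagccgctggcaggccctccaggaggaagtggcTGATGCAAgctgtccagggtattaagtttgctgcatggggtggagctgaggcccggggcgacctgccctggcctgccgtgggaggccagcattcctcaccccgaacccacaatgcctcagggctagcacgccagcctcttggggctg
SLC7A1: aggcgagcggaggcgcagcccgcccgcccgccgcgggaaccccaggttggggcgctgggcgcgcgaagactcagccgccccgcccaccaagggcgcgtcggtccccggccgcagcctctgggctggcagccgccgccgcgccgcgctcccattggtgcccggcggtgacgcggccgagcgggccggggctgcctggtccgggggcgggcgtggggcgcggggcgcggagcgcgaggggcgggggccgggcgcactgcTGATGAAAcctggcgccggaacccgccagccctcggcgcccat
SLC1A4: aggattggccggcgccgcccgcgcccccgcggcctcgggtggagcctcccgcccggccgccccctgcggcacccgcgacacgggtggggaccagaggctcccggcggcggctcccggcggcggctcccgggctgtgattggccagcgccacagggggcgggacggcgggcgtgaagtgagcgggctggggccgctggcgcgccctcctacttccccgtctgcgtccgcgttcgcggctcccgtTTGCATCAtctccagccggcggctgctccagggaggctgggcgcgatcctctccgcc
SLC38A1: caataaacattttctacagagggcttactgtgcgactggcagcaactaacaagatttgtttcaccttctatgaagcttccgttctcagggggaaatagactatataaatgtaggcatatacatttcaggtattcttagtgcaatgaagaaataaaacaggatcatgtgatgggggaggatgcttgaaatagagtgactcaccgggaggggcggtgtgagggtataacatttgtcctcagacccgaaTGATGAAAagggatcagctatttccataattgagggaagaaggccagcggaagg

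Taken as a whole, the solute carrier genes held 0.896% of all TPM. Their sum was 10051, 9412 and 8478 TPM in the NRP2-high group, against 9628, 9400 and 6765 TPM in the NRP2-low group. The groups overlapped, and the lowest sum was that of S37. The mitochondrial carrier family gave 29.7% of the summed level, the amino acid carriers 19.7%, the metal carriers 11.2% and the inorganic ion carriers 10.5%. Levels of single genes ran from 2.03 to 1171 TPM with a median of 22.0 TPM, and 40 genes had a mean of at least 50 TPM.

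**Figure D1:**
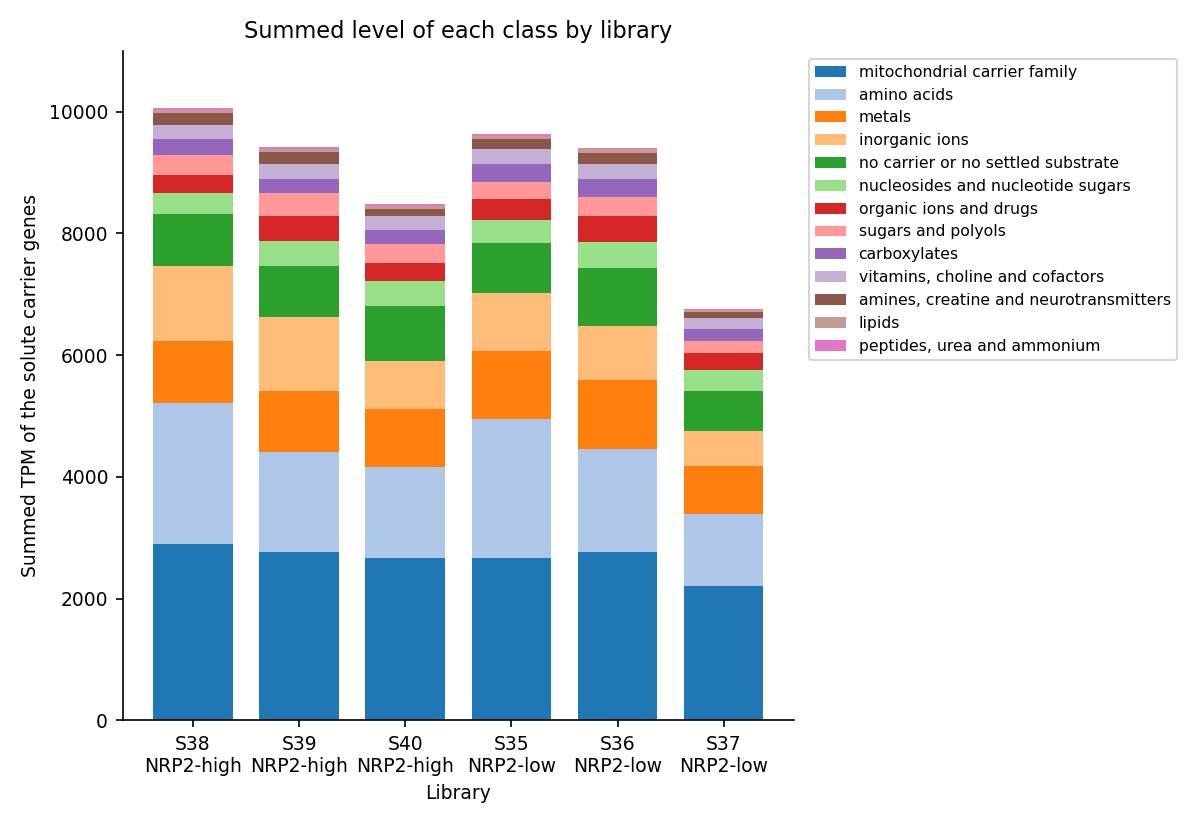
Summed TPM of the 172 solute carrier genes in each library, stacked by class, from 0. Among NRP2-high libraries the sum is highest in S38 (10051 TPM), and over both groups it is lowest in S37 (6765 TPM).

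The most abundant gene was SLC25A5, which encodes an ADP/ATP exchanger of the inner mitochondrial membrane, at 1364, 1222 and 1084 TPM in NRP2-high and 1183, 1180 and 994 TPM in NRP2-low libraries. The sodium-coupled neutral amino acid carrier SLC38A2 followed at a mean of 746 TPM, then the phosphate importer SLC20A1 at 379 TPM and the organic anion carrier SLCO4A1 at 335 TPM. Others above 200 TPM were the amino acid carrier SLC38A1 (275 TPM), the mitochondrial phosphate carrier SLC25A3 (249 TPM) and citrate carrier SLC25A1 (233 TPM). The zinc importers SLC39A7 (204 TPM) and SLC39A6 (202 TPM) and the orphan SLC35F2 (203 TPM) were in the same range. The lactate and pyruvate carrier SLC16A1 was at 194 TPM and its relative SLC16A3, known for lactate export, at 51.7 TPM. The glucose carrier SLC2A1 was at 70.2 TPM, close to the myo-inositol carrier SLC5A3 at 71.4 TPM. In the smaller classes the leading genes were the nucleoside carrier SLC29A1 (89.9 TPM), the taurine carrier SLC6A6 (54.6 TPM), the ascorbate carrier SLC23A2 (52.5 TPM), the fatty acid transport protein SLC27A4 (40.3 TPM) and the peptide carrier SLC15A4 (22.3 TPM). Behind them came SLC35B2 (79.5 TPM), which brings the sulfate donor into the Golgi, the nucleoside carrier SLC29A2 (42.1 TPM), the choline carrier SLC44A1 (38.2 TPM), the vesicular polyamine carrier SLC18B1 (37.2 TPM) and the lysosomal sialic acid carrier SLC17A5 (36.5 TPM). Among symbols that name no carrier, SLC2A4RG was at 83.4 TPM and SLC9A3R1 at 78.1 TPM.

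**Figure D2:**
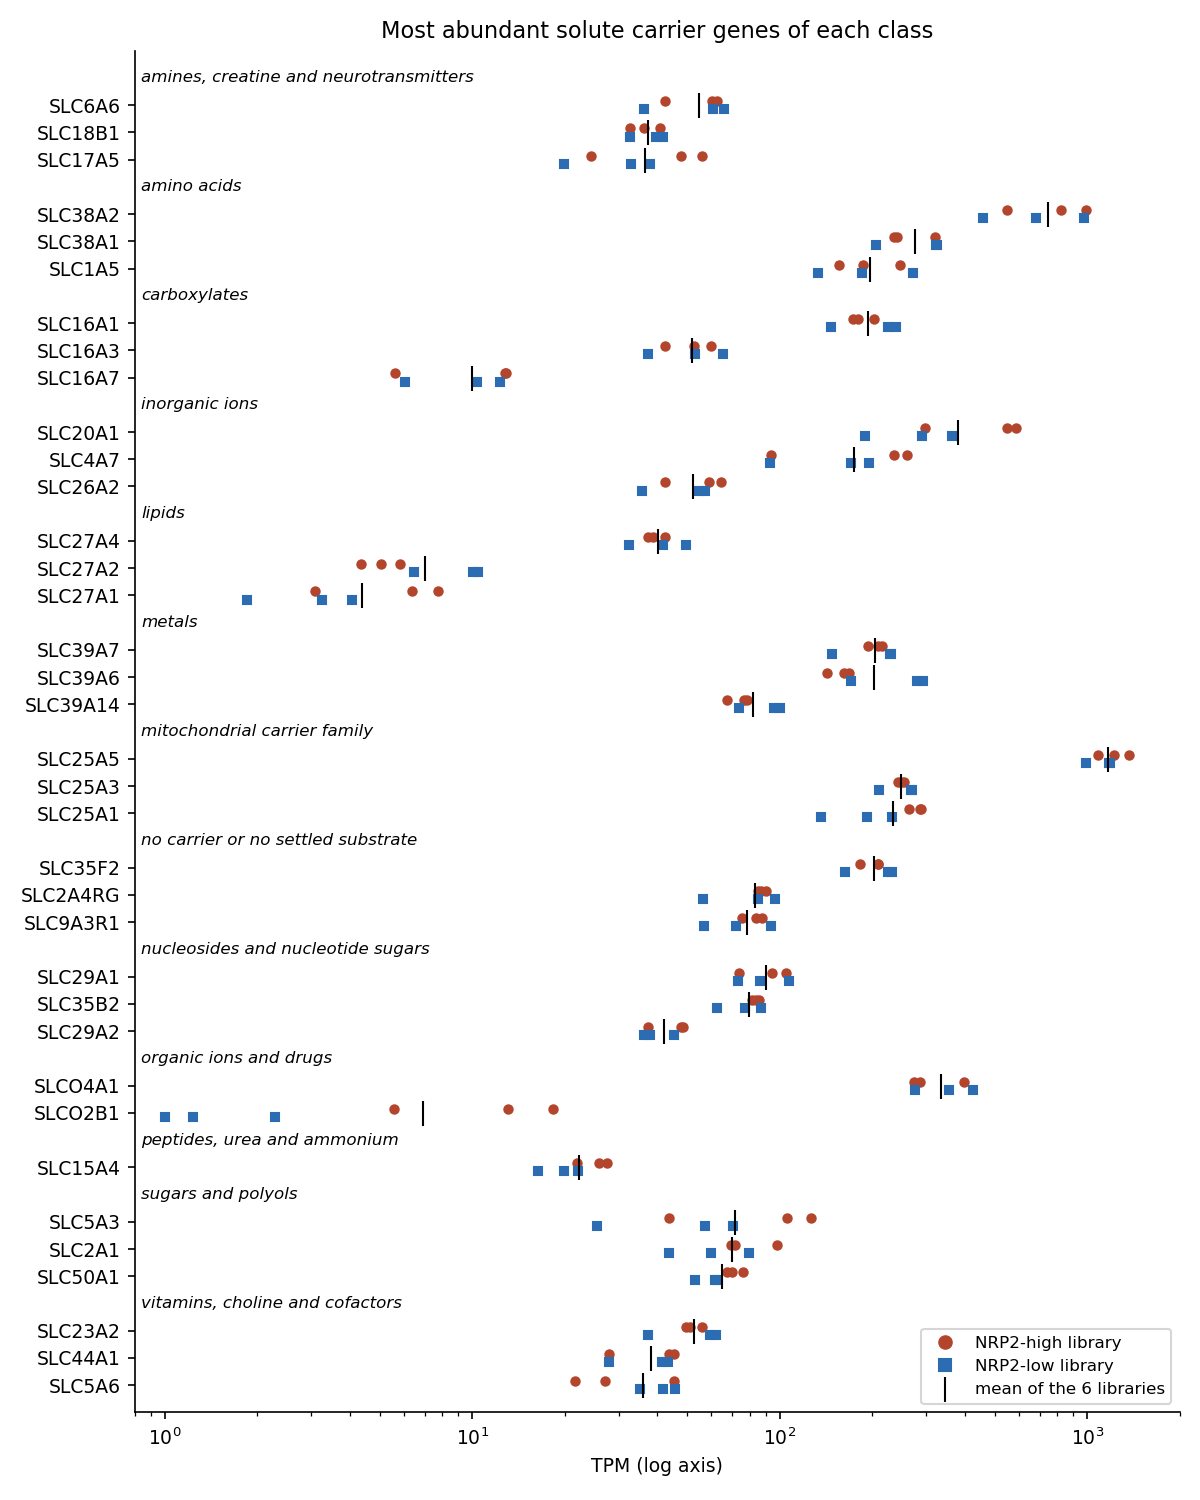
TPM on a log axis of the most abundant solute carrier genes of each class, up to 3 a class, with a point for each library and a bar for the mean of the 6. NRP2-high and NRP2-low points interleave in most rows, and those of SLCO2B1 are apart, at 5.58 to 18.4 TPM against 1.005 to 2.28 TPM. Groups also did not overlap in other rows, among them SLC39A6, SLC25A1, SLC50A1 and SLC27A2.

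At the lower limit of the rule, SLC29A4 and SLC22A17 (2.03 TPM each) and SLC27A5 (2.07 TPM) were just inside, and SLC22A4 (1.96 TPM), SLC9A2 (1.78 TPM) and SLC30A3 (1.72 TPM) just outside. In 7 genes the mean of 1 group alone was under 2 TPM: SLC17A7, SLC24A1, SLC27A5, SLC22A17, SLC29A4, SLCO2B1 and SLC2A11.

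The comparison of the groups used limma on log2(TPM + 1) over 15214 genes with at least 1 TPM in at least 3 libraries, with Benjamini-Hochberg adjustment over all of them. All 172 solute carrier genes passed that filter. Of the 15214 genes, 0.835% passed an adjusted p of 0.05. Among the solute carrier genes 1 passed, SLCO2B1, and its direction was higher in NRP2-high. It was singled out with its difference known, so its call is a description. It also meets the 2 TPM rule only through NRP2-high, with group means of 12.3 and 1.51 TPM. Of the other 171, limma called 0, with 10 at an unadjusted p under 0.05 (5.85%, against 7.00% of all genes tested). limma voom on the recovered reads also called 0 of these 171, against 1.31% of all genes. With voom 14 of the 171 had an unadjusted p under 0.05, and the matching share of all genes is not given here. NRP2-high libraries lay wholly above NRP2-low libraries in 13 solute carrier genes (7.56%, against 8.83% of all genes) and wholly below in 4 (2.33%, against 3.14%). Both shares lie near the background.

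The median log2 fold change, NRP2-high minus NRP2-low, was 0.09 for the solute carrier genes and 0.10 for all genes tested. Of the 172, 122 were above 0 (70.9%, against 66.3% of all genes). The solute carrier genes are all protein coding, and among the 11068 protein-coding genes tested the median was 0.11, with 70.6% above 0. Without S37, 78 of the 171 genes other than SLCO2B1 were above 0, against 121 with it. Scaling by the median log ratio, which moved the median of all genes from 0.10 to -0.01, also left 78 above 0. Leaving out mitochondrially encoded genes left 86 above 0. None of these 171 reached 1 in either direction in log2(TPM + 1), where the pseudocount shrinks differences of low genes. The ratio of the group mean TPM was over 2 for 5 of them, between 2.06 and 2.22: SLC22A17, SLC1A1, SLC48A1, SLC25A27 and SLC25A43. For 137 of them (80.1%) the 95% interval on that scale lay within -1 and 1. For the others it reached past 1 or -1. The share within -1 and 1 was 75.7% of all genes and 83.6% of protein-coding genes tested.

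**Figure D3:**
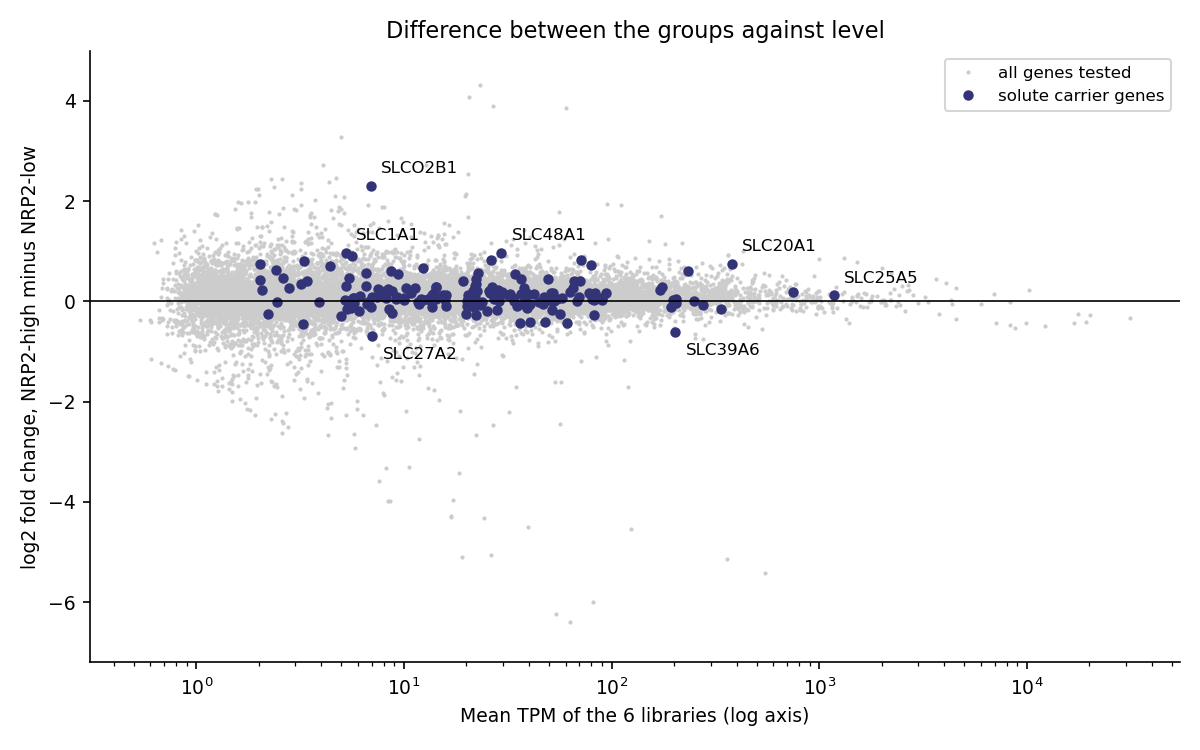
Log2 fold change, NRP2-high minus NRP2-low, against mean TPM on a log axis, for all 15214 genes tested (grey) and the 172 solute carrier genes (dark). All dark points but SLCO2B1, at 2.31, lie between -0.70 and 0.97.

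SLCO2B1 (ENSG00000137491.14, GRCh38 chromosome 11, 75100563 to 75206549, plus strand) reached 5.58 TPM in S38, 13.0 TPM in S39 and 18.4 TPM in S40, all NRP2-high, against 1.24 TPM in S35, 2.28 TPM in S36 and 1.005 TPM in S37, all NRP2-low. The lowest NRP2-high library lay above the highest NRP2-low library, and the values rest on 316, 741 and 1169 against 100, 138 and 58 reads. Group means were 12.3 ± 6.42 TPM (SD, n = 3) and 1.51 ± 0.68 TPM (SD, n = 3), a ratio of 8.18. The fitted difference on the log2(TPM + 1) scale was 2.31 (SE 0.40, 95% interval 1.40 to 3.21). The gene was singled out with this difference known, so these values are a description. NRP2 and SLCO2B1 were not ordered alike within NRP2-high: S40 had the least NRP2 and the most SLCO2B1. The call ended when any library other than S38 was left out, with no filter, with median ratio scaling and without mitochondrially encoded genes, and the log2 fold change stayed between 1.97 and 2.87 in every alternative. The other expressed member of its family, SLCO4A1, which carries thyroid hormone, was at 285, 397 and 273 TPM in NRP2-high and 355, 427 and 275 TPM in NRP2-low libraries. Its groups overlapped, with a log2 fold change of -0.14 (95% interval -0.64 to 0.35), and it shares exonic sequence with SLCO4A1-AS1 on the opposite strand, whose reads cannot be told apart without strand.

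Amino acid carriers numbered 19, of which 0 passed the test with limma or with voom. Of these 19, 1 had an unadjusted limma p under 0.05 (5.26%, against 7.00% of all genes). Their median log2 fold change was 0.11, with 15 above 0, and it ran from -0.09 (without S37) to 0.21 (without S35) with 1 library left out. SLC1A1, a glutamate and cysteine importer, was at 6.59, 9.06 and 5.94 TPM in NRP2-high and 3.46, 4.67 and 1.79 TPM in NRP2-low libraries. Its groups did not overlap, and its log2 fold change of 0.97 (SE 0.30, limma adjusted p = 0.406) was the largest after SLCO2B1. SLC7A6, which exchanges cationic for neutral amino acids, was at 35.4, 45.3 and 79.1 against 58.6, 78.1 and 70.4 TPM (log2 fold change -0.44, 95% interval -1.08 to 0.20). SLC7A6 overlaps SLC7A6OS on the opposite strand.

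For several abundant amino acid carriers, those listed next among them, the range within a group exceeded the difference between the group means. The cystine importer SLC7A11 was at 75.8 (S38), 26.0 (S39) and 19.5 TPM (S40), against 56.0 (S35), 17.3 (S36) and 12.1 TPM (S37). The large neutral amino acid exchanger SLC7A5 was at 305, 111 and 134 against 264, 125 and 84.9 TPM. SLC3A2, the heavy chain that pairs with both, was at 102, 51.5 and 88.8 against 120.0, 58.2 and 61.1 TPM. All 3 genes were highest in S38 within NRP2-high and in S35 within NRP2-low. The glutamine carrier SLC1A5 (247, 156 and 186 against 272, 185 and 134 TPM), SLC38A2 (992, 822 and 547 against 974, 681 and 460 TPM) and the arginine carrier SLC7A1 (99.6, 68.2 and 80.5 against 100.1, 90.6 and 56.3 TPM) had the same pair of highest libraries. This held for 9 of the 19 amino acid carriers (47.4%), against 36 of all 172 solute carrier genes (20.9%) and 20.9% of all genes tested. The pattern was noticed in these values and has no test. The intervals were correspondingly wide. The log2 fold change was 0.55 for SLC7A11 (95% interval -0.84 to 1.94), 0.23 for SLC7A5 (-0.84 to 1.29) and 0.18 for SLC38A2 (-0.52 to 0.89). Each turned below 0 without S38, and those of SLC7A5 and SLC38A2 also did so without S37.

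**Figure D4:**
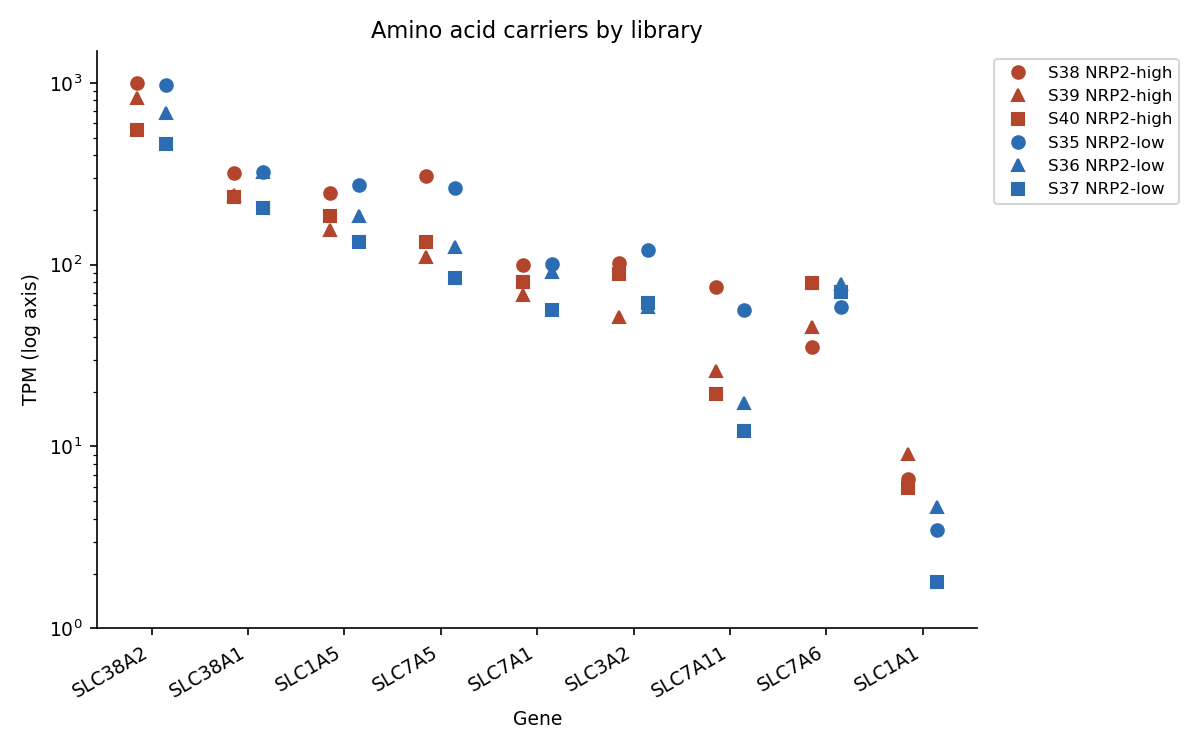
TPM on a log axis of 9 amino acid carriers, with a marker for each library, NRP2-high in red and NRP2-low in blue. For SLC7A11 the circles (S38 at 75.8 TPM and S35 at 56.0 TPM) lie above the other libraries of either group, and only SLC1A1 among the 9 has groups that do not overlap.

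Of the 172 genes, 142 matched a promoter table entry, with 212 windows of 34961 in all. Their windows were richer in G and C (median 66.7% against 58.7% of all windows) and in CpG (observed over expected 0.80 against 0.58). Both windows of SLCO2B1 were poor in CpG, at 0.084 and 0.19. On both strands 9 motifs were searched, each spelled by its letters, and overlapping matches were counted. TGATGNAA was in 5 of 29 amino acid carrier windows (17.2%), in 4.72% of solute carrier windows and in 3.62% of all windows. E-box and AP-1 letters were also more frequent in amino acid carrier windows than in all windows, at 17.2% and 13.8% against 7.27% and 4.92%. So were GGGCGG (72.4% against 45.0%), ACGTG (34.5% against 21.4%), TGCGCNC (31.0% against 20.0%) and TGACNNNGC (17.2% against 13.4%). TATAAA (10.3% against 11.5%) and CCAAT (27.6% against 34.6%) were less frequent there. Of the 17 amino acid carriers with a window, the 5 printed above hold TGATGNAA, and 4 of these (all but SLC1A4) had S38 and S35 as their highest libraries. So did 4 of the 12 without it, SLC38A2, SLC7A5, SLC36A4 and SLC43A1. SLC7A11, which also had this pair, has no window and is in neither count. Only this motif was set beside the pair, which was itself noticed in these values. In the other classes the pair was found in 1 of 5 genes with TGATGNAA (20.0%) and in 24 of 120 without it (20.0%). The antioxidant response core TGACNNNGC was in 16.0% of solute carrier windows and 13.4% of all windows, the metal response core TGCGCNC in 27.4% and 20.0%, and the E-box CACGTG in 14.2% and 7.27%. The hypoxia response core ACGTG, which lies within CACGTG, was in 28.3% and 21.4%, the GC box GGGCGG in 67.0% and 45.0%, and CCAAT in 38.2% and 34.6%. TATAAA was in 4.72% and 11.5%, and the AP-1 site TGACTCA in 3.30% and 4.92%. The printed amino acid carriers were chosen after these matches were seen, and a match describes the letters of a window.

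Metal carriers numbered 19, of which 0 passed with limma or voom, with a median log2 fold change of 0.05. Of these 19, 3 had an unadjusted limma p under 0.05 (15.8%, against 7.00% of all genes). The zinc importers lay on both sides of 0. SLC39A6 was at 162, 168 and 143 TPM in NRP2-high and 279, 293 and 170 TPM in NRP2-low libraries. S37 lay close to the NRP2-high values, and the groups did not overlap. On the log2 scale the difference was -0.61 (SE 0.22, limma adjusted p = 0.551) with all libraries. Without S37 it was -0.86, with a limma adjusted p of 0.0446 over the same 15214 genes and 0.0559 once the filter was applied again to 5 libraries. SLC39A8, which also imports manganese and cadmium, was at 16.0, 15.8 and 14.03 against 10.3, 10.2 and 7.58 TPM, with no overlap (log2 fold change 0.66, SE 0.19, limma adjusted p = 0.331). SLC39A8 shares exonic sequence with AC098487.1 on its own strand. SLC39A10 was at 145, 118 and 42.6 against 79.0, 63.0 and 31.9 TPM, with S40 and S37 low and the groups overlapping. SLC39A14, which imports iron as well as zinc, had a log2 fold change of -0.27. The heme carrier SLC48A1 was at 22.6, 30.0 and 68.3 TPM in NRP2-high and 18.8, 24.6 and 12.4 TPM in NRP2-low libraries. Its log2 fold change of 0.97 (SE 0.40, limma adjusted p = 0.652) was 0.52 without S40, and it overlaps HDAC7 and RAPGEF3 on the opposite strand.

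Inorganic ion carriers numbered 25, with 0 past the test by limma or voom and a median log2 fold change of 0.12. Of these 25, 1 had an unadjusted limma p under 0.05 (4.0%, against 7.00% of all genes). SLC20A1 was at 586, 548 and 296 TPM in NRP2-high and 363, 290 and 190 TPM in NRP2-low libraries. S40 lay within the NRP2-low range, and the difference was 0.75 on the log2 scale (SE 0.31, limma adjusted p = 0.671). The sodium bicarbonate carrier SLC4A7 was at 259, 236 and 93.5 against 195, 171 and 92.7 TPM, with S40 and S37 low alike. The sulfate carrier SLC26A2 had a mean of 52.3 TPM and a log2 fold change of 0.17.

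In the mitochondrial carrier family 0 of 38 genes passed with limma or voom, and the median log2 fold change was 0.08. Of these 38, 3 had an unadjusted limma p under 0.05 (7.89%, against 7.00% of all genes). SLC25A1, which exports citrate to the cytosol, was at 285, 263 and 289 TPM in NRP2-high and 193, 233 and 136 TPM in NRP2-low libraries, with no overlap (log2 fold change 0.61, SE 0.21, limma adjusted p = 0.487). SLC25A43, an orphan, was at 9.51, 7.13 and 6.16 against 5.13, 3.63 and 2.30 TPM, also with no overlap (log2 fold change 0.90, limma adjusted p = 0.409). SLC25A27, an uncoupling protein relative, was at 4.45, 6.31 and 2.62 against 3.23, 1.36 and 1.75 TPM, and its groups overlapped at S40. Lower means in NRP2-high were found for SLC25A37, the mitochondrial iron importer (46.3, 44.5 and 32.6 against 63.9, 50.1 and 50.6 TPM), and SLC25A33, a pyrimidine nucleotide carrier (log2 fold change -0.41 each). SLC25A21, an oxodicarboxylate carrier, had -0.28, with a range of -0.63 (without S40) to -0.088 (without S38).

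Sugar and polyol carriers (11 genes, median log2 fold change 0.16) held 0 called genes with limma or voom and 0 at an unadjusted limma p under 0.05. SLC5A3 was at 106, 126 and 43.6 against 57.3, 70.4 and 25.4 TPM (log2 fold change 0.82, 95% interval -0.23 to 1.87) and shares exonic sequence with MRPS6. SLC2A1 was at 71.4, 69.3 and 97.7 against 59.9, 79.3 and 43.5 TPM (log2 fold change 0.40, 95% interval -0.15 to 0.96). The sugar efflux gene SLC50A1 was at 76.0, 69.8 and 67.2 against 61.7, 63.1 and 52.9 TPM, with no overlap. Among the 3 carboxylate carriers, the log2 fold change was -0.11 for SLC16A1 (95% interval -0.58 to 0.36) and 0.01 for SLC16A3 (-0.52 to 0.54). SLC16A7, a high-affinity pyruvate carrier, had a mean of 10.004 TPM.

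Among the 4 lipid carriers, SLC27A2, a very long chain acyl-CoA synthetase and fatty acid transport protein, was at 5.81, 5.07 and 4.35 TPM in NRP2-high and 10.4, 10.03 and 6.46 TPM in NRP2-low libraries. The groups did not overlap, and the log2 fold change of -0.70 (SE 0.23, limma adjusted p = 0.478) was the lowest of the 172. SLC27A2 overlaps ATP8B4 on the opposite strand. SLC27A1, of the same family, was at 7.72, 6.38 and 3.08 against 4.06, 3.24 and 1.85 TPM (log2 fold change 0.70, 95% interval -0.08 to 1.48), with S40 inside the NRP2-low range. Vitamin and cofactor carriers (9 genes, median log2 fold change 0.01) held 0 called genes with limma or voom and 0 at an unadjusted limma p under 0.05. SLC44A2, of the choline carrier family, was at 38.3, 38.6 and 21.6 against 28.9, 22.7 and 8.08 TPM (log2 fold change 0.82, and 0.30 without S37). The multivitamin carrier SLC5A6 (-0.44) and the proton-coupled folate carrier SLC46A1 (-0.46) had lower means in NRP2-high. The nucleoside and nucleotide sugar carriers (13 genes, median 0.04, lowest SLC35A2 at -0.27) and the amine, creatine and neurotransmitter carriers (6 genes, median 0.43, from 0.073 without S37 to 0.73 without S40) held 0 called genes by limma or voom and 0 at an unadjusted limma p under 0.05. SLC22A17, a lipocalin-2 receptor without a settled substrate, was at 2.44, 3.06 and 2.89 against 1.41, 1.201 and 1.17 TPM, with no overlap (log2 fold change 0.75, SE 0.23, limma adjusted p = 0.394) on 310 reads in all. Of the 22 genes in its class, 1 had an unadjusted limma p under 0.05 (4.55%, against 7.00% of all genes).

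**Figure D5:**
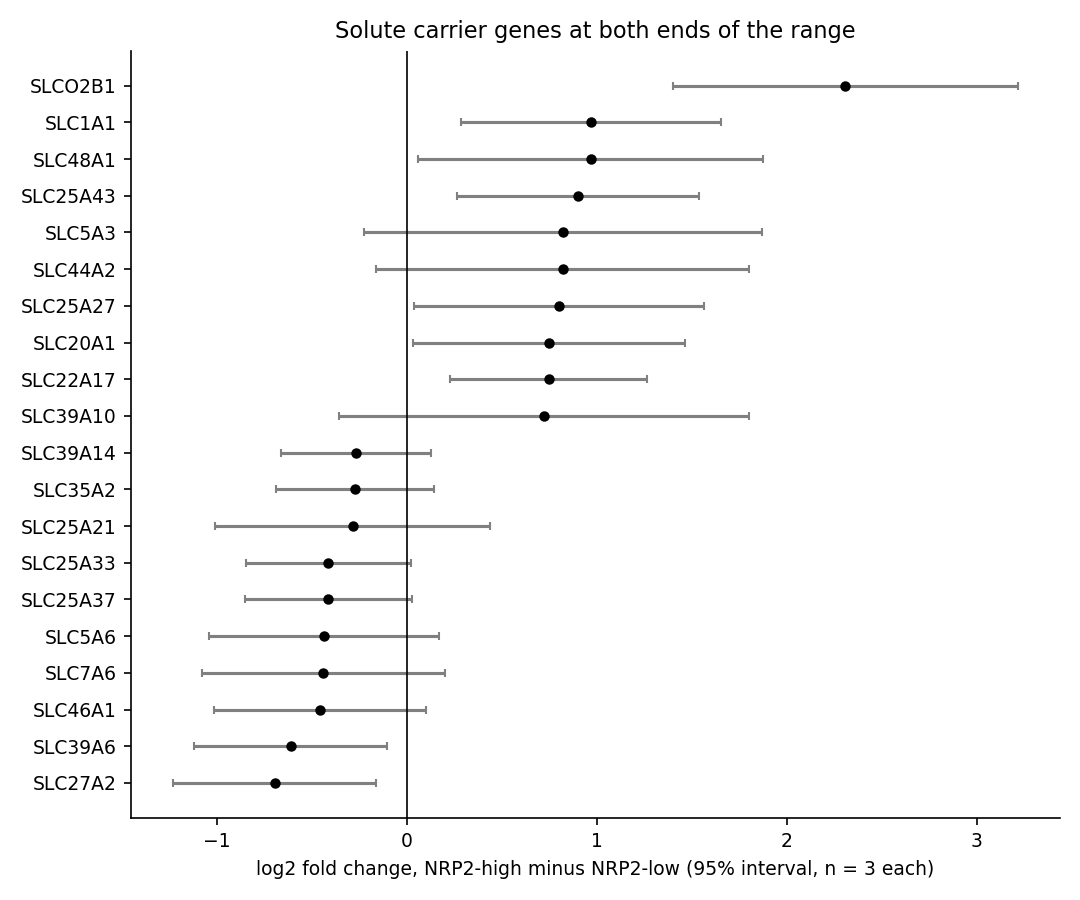
Log2 fold change, NRP2-high minus NRP2-low, with 95% limma intervals (n = 3 each) for the 10 solute carrier genes at each end of the range. SLCO2B1 is at 2.31 (1.40 to 3.21), the next, SLC1A1, at 0.97, and the lowest, SLC27A2, at -0.70.

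S37 was the lowest NRP2-low library in 128 of 172 solute carrier genes (74.4%, against 67.8% of all genes). S40 and S37 were both the lowest of their groups in 71 (41.3%, against 37.5%), including 6 of the 10 genes with the largest log2 fold change. The part of this in the differences was not tested.

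Other carriers and pumps, with chaperones and regulators of carriers, were taken from a list of 54, of which 51 matched and 41 were tested. limma called 0 of them, with 2 at an unadjusted p under 0.05 (4.88%, against 7.00% of all genes), and voom gave the same counts. Their median log2 fold change was 0.08. Among the most abundant were ATP1B3 (477 TPM), a subunit of the sodium pump, BSG (375 TPM), the chaperone of SLC16A1 and SLC16A3, and the mitochondrial MTCH1 (150.04 TPM).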

How the data were processed

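The authors deposited TPM values, gene lengths and positions for 27958 genes. Tools named in the submitters' processing notes are featureCounts 1.5.2 and DESeq2 1.20.0, their roles unstated, on build hg38 (GRCh38.p12). The sources used here name no aligner, library kit or strand setting. Columns were tied to groups by name. TPM times length, over the smallest value, gave whole reads for 100% of values (tolerance 0.001). Replicates differed beyond sampling noise (chi-square per gene 21.6 to 110.7). limma 3.58.1 in R 4.3.3 tested log2(TPM + 1) with a variance trend. The pseudocount of 1 understates changes of low genes. The test was tested on simulated data. Named are SLCO2B1, called genes, both ends of the fold changes, the 3 most abundant of each class, the edge of the rule and leading partners. SLC7A11, SLC7A5, SLC39A8, SLC25A1 and others were added after their values were seen. Members, lists and classes were chosen with earlier results of these data known. SLC22A17, SLC4A1AP and SLC2A4RG changed class after levels were seen. Sequences are RefSeq's. Some genes that the naming rule or the marker list takes are not reported here.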

Additional observations from a re-analysis of the deposited data

How the results depend on the processing

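The call of SLCO2B1 is a description, as the gene was singled out with its difference known. SLCO2B1 kept this call with a pseudocount of 0.1, without a variance trend, with voom and without S38. The count of solute carrier genes called higher was 0 with no filter on low values, with median ratio scaling and without mitochondrially encoded genes. It ran from 0 to 1 when a library was left out. With the rule set at 2 TPM in each group it was 0 by construction, because SLCO2B1, at a mean of 1.51 TPM in NRP2-low, drops out. The count called lower was 1 with the rule set at 1 TPM, which takes in SLC9A2, and ran from 0 to 1 with a library left out. That 1 is SLC39A6 without S37, at a log2 fold change of -0.86 (limma adjusted p = 0.0446). It rests on a choice made after results were seen. The filter was first applied again to the 5 libraries left, which gave 0 called lower in each case and 0 called higher in all but the fit without S38. The gene set was then held fixed, which is the version given first. The mitochondrial median became -0.044 with scaling, and the vitamin median ran from -0.147 (without S37) to 0.129 (without S36). Leaving out 1 library also took the medians across 0 for all 172 genes (-0.012 to 0.178), amino acids (-0.091 to 0.210), metals (-0.056 to 0.133), inorganic ions (-0.011 to 0.216), nucleosides (-0.031 to 0.095), carboxylates (-0.207 to 0.155) and the class without a settled substrate (-0.021 to 0.258). The amine median ran from 0.073 to 0.731. Uncalled single genes moved widely too, among them SLC5A3 (0.392 to 1.28), SLC39A10 (0.350 to 1.26), SLC2A1 (0.184 to 0.610), SLC5A6 (-0.727 to -0.211) and SLC7A6 (-0.761 to -0.192). Differences that changed sign were all uncalled. SLC16A3 was at -0.111 with scaling, -0.080 without mitochondrially encoded genes and -0.095 with voom. Leaving out each library in turn gave log2 fold changes of -0.207 to 0.192 for SLC16A3, -0.311 to 0.0069 for SLCO4A1, -0.023 to 1.17 for SLC7A11, -0.213 to 0.679 for SLC7A5, -0.091 to 0.450 for SLC38A2 and -0.330 to 0.018 for SLC16A1. The causes were not tested. No paired analysis was possible because the columns carry no replicate number of the labels. Genes near 2 TPM rest on few reads, 310 for SLC22A17 over the 6 libraries.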

Other observations

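Below the 2 TPM limit, 12 of 108 protein-coding solute carrier genes passed the filter of the test. SLC9A2, a sodium/proton exchanger, was at 0.34, 0.34 and 0.60 TPM in NRP2-high and 3.36, 3.64 and 2.40 TPM in NRP2-low libraries. It fell in NRP2-high (log2 fold change -1.53, limma adjusted p = 0.036), and the groups did not overlap. SLC44A5, of the choline carrier family, was at 1.54, 1.97 and 1.27 against 0.10, 0.14 and 0.03 TPM, with no overlap (log2 fold change 1.24, limma adjusted p = 0.108). Both were named after their values were seen. A further 35 rows carry a solute carrier symbol and are not protein coding. The highest of them was SLC16A1-AS1, at a mean of 9.07 TPM, which lies opposite SLC16A1.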
